A study of Rattus norvegicus and Mus musculus with 18 samples.

Results

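Mouse wound epidermis was compared with mouse wound dermis, the 2 layers of skin taken from the same kind of wound in mice. The comparison used 6 of the 18 samples of a study of wound repair in mice and rats: 3 libraries of wound epidermis and 3 of wound dermis, chosen by their labelled tissue. Both groups are labelled as skin wound, collected 1 day after the scab came off, and the series describes that day as falling together with the regeneration of hair follicles in mice. Strain, sex, age and treatment are not among the labels, and whole pieces of tissue were homogenised, so each library holds every cell of its layer. Total RNA was copied and amplified by SMART-seq2, which makes full-length cDNA from polyadenylated RNA. Values are in TPM, which scales each library to the same total and corrects for transcript length, and sequencing depth is unknown. Of 49548 genes listed, 15982 stood at 1 TPM or more in at least 3 of the 6 libraries and were tested. The labels do not tie the libraries to different mice, and the p-values below therefore reflect only how much these libraries varied.

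The epidermis is a layered epithelium of keratinocytes, which divide at its base, move outwards, and turn into flattened dead cells held together by cross-linked proteins and sealed by lipids. The dermis beneath it is a collagen-rich connective tissue made by fibroblasts and holds the vessels, nerves and most immune cells of the skin. A basement membrane joins the layers, and signals pass across it in both directions while a wound is closed and remodelled.

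Both layers held abundant transcripts rich in glycine codons, and the coding sequences of the leading genes show how differently these codons are set. Lor encodes loricrin, the main protein of the cornified envelope, and 55.3% of its codons are glycine codons. Krt10 encodes a keratin of the outer living layers, with 24.4%, while Col1a1 and Col3a1 encode the main fibrillar collagens, with 26.8% and 28.3%. The lines below give 40 codons of each, read 5′ to 3′ from mouse mm10 transcripts of GENCODE, with glycine codons in capitals. The Lor stretch (codons 20 to 59, minus strand of a gene at chr3:92080271-92083142) and the Krt10 stretch (codons 85 to 124, minus strand, chr11:99385254-99389364) hold runs of glycine codons. The Col1a1 stretch (codons 108 to 147, plus strand, chr11:94936224-94953042) and the Col3a1 stretch (codons 506 to 545, plus strand, chr1:45311538-45349706) repeat one at regular spacing, with 2 other codons between most of them.
Lor: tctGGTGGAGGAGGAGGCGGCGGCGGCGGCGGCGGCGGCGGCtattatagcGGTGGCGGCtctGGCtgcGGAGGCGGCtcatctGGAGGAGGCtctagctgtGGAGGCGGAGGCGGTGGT
Krt10: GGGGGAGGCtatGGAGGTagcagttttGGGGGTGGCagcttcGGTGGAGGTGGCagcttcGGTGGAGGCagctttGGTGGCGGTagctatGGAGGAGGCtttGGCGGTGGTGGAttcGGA
Col1a1: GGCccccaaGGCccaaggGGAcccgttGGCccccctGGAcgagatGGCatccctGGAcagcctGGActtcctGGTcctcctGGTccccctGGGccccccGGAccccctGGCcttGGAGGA
Col3a1: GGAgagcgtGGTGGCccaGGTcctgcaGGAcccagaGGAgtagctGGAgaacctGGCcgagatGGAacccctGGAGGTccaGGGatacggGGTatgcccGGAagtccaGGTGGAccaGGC
In the stretches shown, glycine codons made up 29 of 40 in Lor, 26 in Krt10, 15 in Col1a1 and 17 in Col3a1.

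Genes whose codons were at least 20% glycine numbered 51 among those tested, and together they held a similar share of each library. That share was 6.99%, 5.81% and 6.61% in dermis replicates 1, 2 and 3 and 6.12%, 7.61% and 4.07% in epidermis replicates 1, 2 and 3. The ranges of the layers overlapped. The members differed: 16 were higher in epidermis, among them Lor, Hrnr, Krt2, Krt10, Dmkn and members of the Lce1 family, and 24 were lower, mostly collagens and Eln, which encodes elastin. Genes with at least 10% cysteine codons, which include the Lce and Sprr families of the cornified envelope, numbered 92, of which 50 were higher and 30 lower. They held 0.396%, 0.788% and 0.379% of the dermis libraries and 2.89%, 3.0% and 2.45% of the epidermis libraries, with no overlap. Genes with at least 20% proline codons, to which Sprr2h belongs with 42.6%, numbered 36, with 17 higher and 10 lower. Their share was 0.142%, 0.237% and 0.113% in dermis and 0.854%, 1.17% and 1.17% in epidermis. For comparison with the counts of these 3 classes, 17.0% of all 15982 genes tested were higher and 39.3% lower in epidermis. Over all genes with a coding sequence, the median share of glycine codons differed little, at 6.57% in the 2208 genes higher in epidermis, 6.29% in the 5446 lower and 6.14% in the 5269 not called.

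In all, 8996 of the 15982 genes (56.3%) passed limma's test at an adjusted p under 0.05, with 2721 (17.0%) higher and 6275 (39.3%) lower in epidermis. In 66.0% of the genes tested the libraries of the layers did not overlap, with epidermis above dermis in 20.8% and dermis above epidermis in 45.3%. Calls held in 42.9% of the genes when each library was left out in turn, and in 40.8% under all 3 other scalings. The first principal component, with 85.9% of the variance, separated the layers, and the median log2 difference of all genes was -0.42. The median depended on the scale. Actb, which encodes a cytoplasmic actin, alone took 15.6%, 10.9% and 11.3% of the dermis libraries and 3.57%, 3.84% and 4.53% of the epidermis libraries. Under scaling by the median of gene-wise ratios the median difference was -0.03, with 4342 genes higher and 4850 lower, and under quantile normalization it was 0.08, with 4694 and 4191. The genes called below kept their call, and the list medians their sign, under these scalings and under one that left out the 50 most abundant genes, unless a sentence says otherwise. The calls also held when any 1 library was left out, with the exceptions given beside each gene. Fewer cells of a type and less RNA per cell cannot be told apart in such tissue libraries. A gene near 0 in one layer was tested only where the other layer lifted it over the filter, so it had to differ: 1960 of the genes tested were under 1 TPM in every epidermis library and 242 in every dermis library. How many members were tested through dermis alone is given beside the gene lists whose lower genes are counted. Their counts and medians are then no support for a difference. Nor is the call of a named gene that was under 1 TPM in every library of a layer. Differences are given as log2(TPM + 1) in epidermis minus dermis with limma's standard error, and library values in the order of replicates 1, 2 and 3.

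Dermis replicate 2 carried far more epidermal RNA than the other dermis libraries. The median gene of the cornified envelope list (24 genes) stood at 1.51%, 18.1% and 0.42% of its epidermis mean in dermis replicates 1, 2 and 3. For 8 basal keratinocyte markers the medians were 16.7%, 45.0% and 3.51%, so dermis replicate 1 also held some basal signal. Carry-over in the other direction differed by list. The median fibroblast marker (11 genes) stood at 0.0683%, 0.017% and 0.184% of its dermis mean in epidermis replicates 1, 2 and 3. Medians were 0.943%, 0.216% and 1.99% for blood endothelial markers (11 genes) and 1.11%, 1.25% and 2.15% for pericyte markers (7 genes). These were below the medians given for dermis replicate 2, but the pericyte medians were above the 0.42% of dermis replicate 3. Without dermis replicate 2, 8594 genes (53.8%) passed, 2791 higher and 5803 lower, and differences of epidermal genes became larger. Values without it are therefore given beside each gene that was higher in epidermis. Transcripts of the Y chromosome split the libraries by replicate number rather than by layer. Uty stood at 68.6 TPM in dermis replicate 1 and 24.7 TPM in epidermis replicate 1 and at 0.97 TPM or less in the other 4 libraries, whereas Xist was at 0.01 and 0.04 TPM in the replicates 1 and between 10.1 and 19.4 TPM in the others. The part of this mix in the results was not tested.

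**Figure D1:**
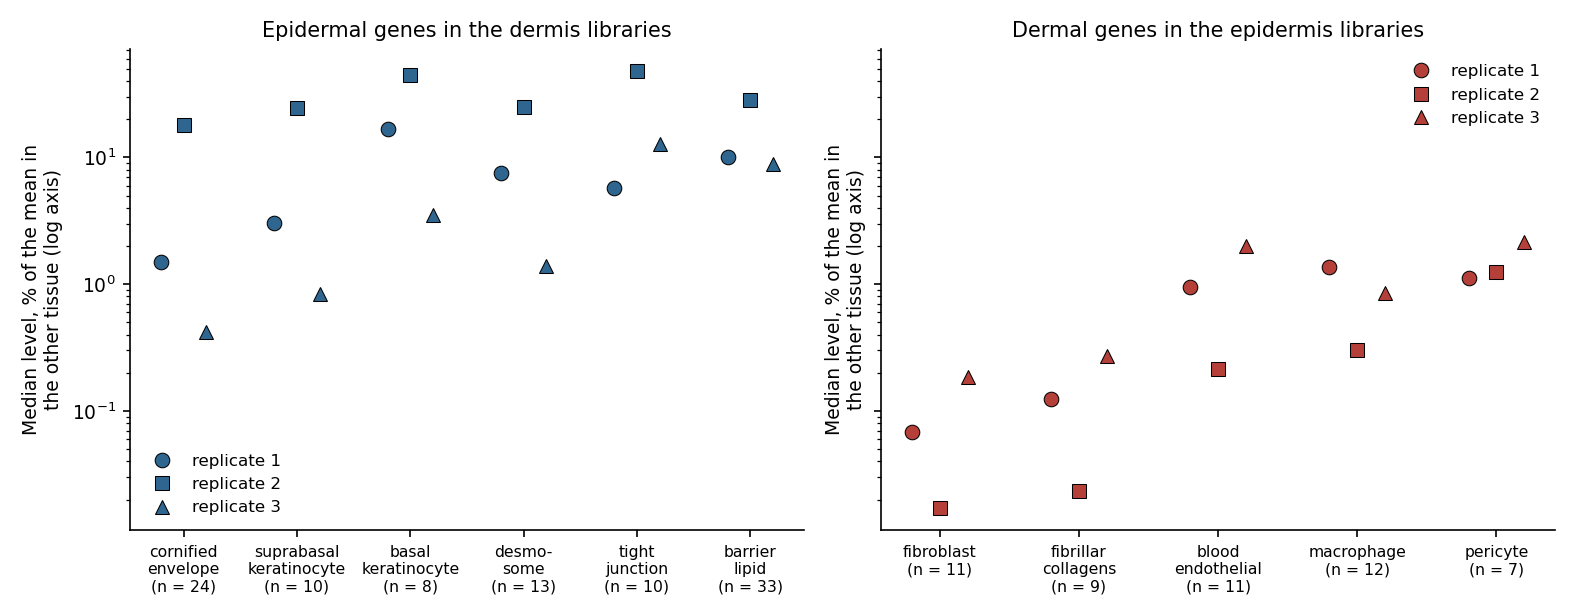
Median level of the genes of each list as a percentage of their mean in the other layer (log axis), with 1 marker per library and the number of genes under each list. Squares in the left panel are dermis replicate 2, which held 18.1% of the epidermal level for the cornified envelope and 45.0% for basal keratinocytes. In the right panel fibroblast genes were at 0.184% or less and pericyte genes at 1.11% or more in all 3 epidermis libraries.

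The 68 tested genes of the epidermal differentiation complex, a stretch of chr3:90511034-93526287 (mm10) that holds the genes of the cornified envelope, were nearly all higher in epidermis. There were 61 higher and 4 lower, with a median difference of 4.53, and 62 higher and 4 lower with a median of 5.44 without dermis replicate 2. As a share of the library the stretch held 0.178%, 0.956% and 0.136% of the dermis libraries and 4.65%, 5.55% and 3.53% of the epidermis libraries. The 4 lower genes were S100 calcium-binding genes at its start: S100a1, S100a13, S100a4 and S100a6. S100a13, at the same end of the complex as several genes that were higher, stood at 58.8, 62.6 and 86.3 TPM in dermis and 6.50, 5.30 and 9.53 TPM in epidermis, a difference of -3.13 ± 0.27 (adjusted p = 1.0e-04). S100a9, a neutrophil and keratinocyte alarm protein in the same stretch, went the other way, at 10.6, 4.32 and 19.8 TPM in dermis and 55.4, 81.7 and 68.6 TPM in epidermis (2.66 ± 0.47, adjusted p = 0.0029, and 2.14 without dermis replicate 2). Neither gene showed overlap between the layers.

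Late in the same complex lie the genes that coat the dead cells. Sprr2d, a small proline-rich protein of the envelope, stood at 47.8, 38.94 and 4.93 TPM in dermis and at 1106, 819.9 and 710.2 TPM in epidermis, a difference of 5.26 ± 0.76 (adjusted p = 0.0012, and 5.67 without dermis replicate 2). Lce3f stood at 24.1, 61.4 and 0.87 TPM and 996, 1366 and 508 TPM (5.95 ± 1.19, adjusted p = 0.0047, and 7.01 without dermis replicate 2). Lce1 genes depended on that library: Lce1c was at 0.42, 228 and 1.93 TPM in dermis and 924, 522 and 531 TPM in epidermis, and its difference of 6.01 (adjusted p = 0.021) became 8.29 (adjusted p = 4.3e-05) without dermis replicate 2. Dermis replicate 2 stood far above the other dermis libraries and below every epidermis library, and the call was lost without dermis replicate 1 (4.62, adjusted p = 0.071), dermis replicate 3 (5.14, adjusted p = 0.074), epidermis replicate 1 (5.74, adjusted p = 0.06) or epidermis replicate 2 (6.16, adjusted p = 0.056). Lce1, Lce3 and Sprr2 genes are near-identical copies, so the split of reads among them is uncertain. Of the whole list of 24 tested genes for the cornified envelope and its cross-linking, 24 were higher, with a median of 5.50 (7.08 without dermis replicate 2), and the cross-linking enzymes were among them. Tgm1, the membrane-bound transglutaminase, stood at 3.81, 14.7 and 1.09 TPM in dermis and 86.1, 112 and 66.5 TPM in epidermis (4.01 ± 0.67, adjusted p = 0.0023, and 4.78 without dermis replicate 2).

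**Figure D2:**
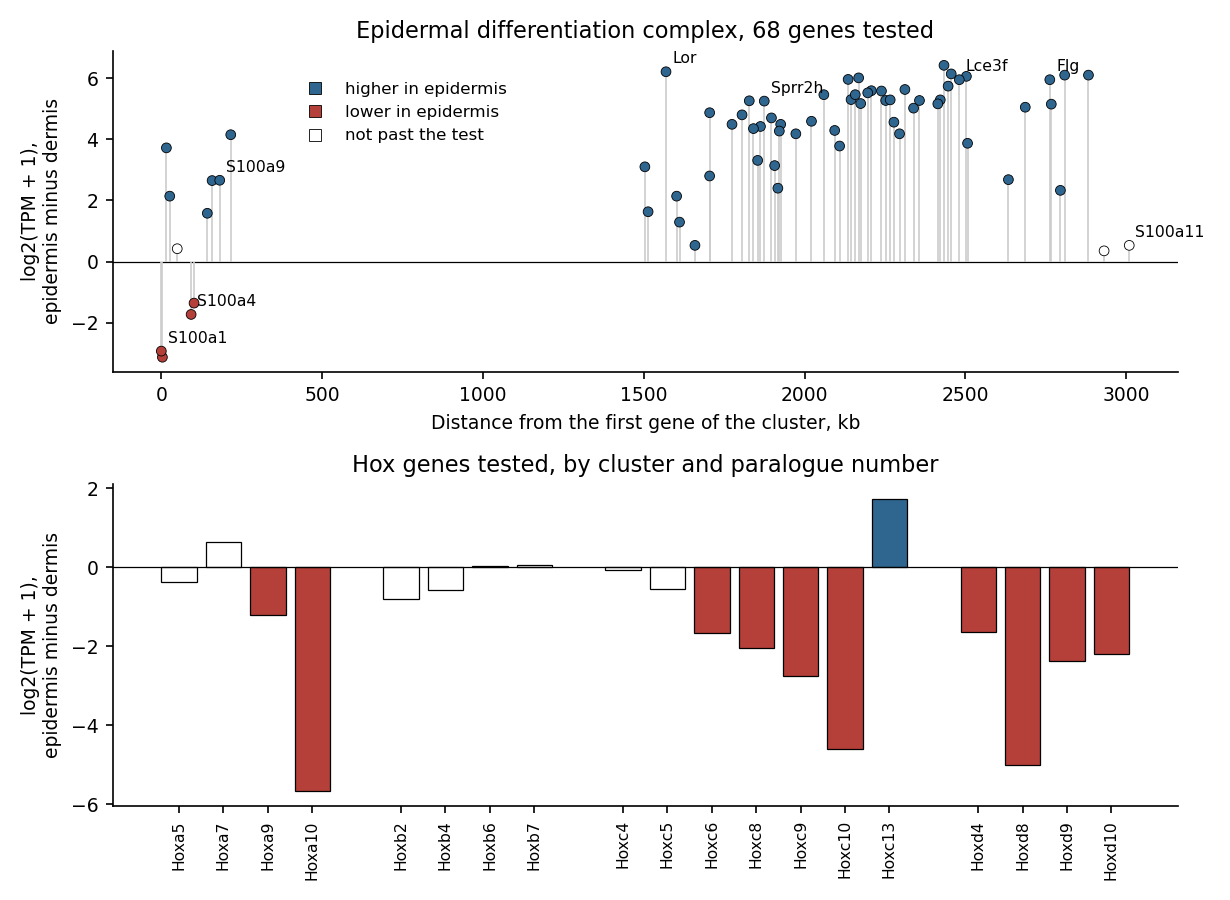
Top: difference in log2(TPM + 1), epidermis minus dermis, of the 68 tested genes of the epidermal differentiation complex by their distance in kilobases from its first gene. Bottom: the same difference for the Hox genes tested, by cluster and paralogue number, with bars from 0. Blue is higher and red lower in epidermis by limma's test, and white did not pass: 61 of the 68 genes on top are blue, and Hoxc13 is the single blue bar below.

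Other families of neighbouring genes were also higher in epidermis. On chromosome 7, 10 of 10 tested kallikreins, serine proteases that release dead cells from the surface, were higher (median 4.64, and 5.46 without dermis replicate 2). On chromosome 1, 9 of 10 Serpinb genes, which encode intracellular protease inhibitors, were higher (median 3.83, and 4.91 without dermis replicate 2), and Serpinb13 (1.21) was not called but passed without it (1.52, adjusted p = 0.038). On chromosome 2, 5 of 5 tested interleukin-1 family genes from Il1f9 to Il1rn were higher (median 4.47, and 5.53 without it). They include interleukin-36 cytokine genes and the gene of the interleukin-1 receptor antagonist. The type I keratin genes on chromosome 11 were higher for 6 of 8 and the type II genes on chromosome 15 for 9 of 12, with none lower in either. Krt12 (1.78), Krt17 (2.53), Krt71 (-1.01), Krt77 (2.50) and Krt79 (0.54) were not called. Without dermis replicate 2 Krt12 passed as higher (2.39, adjusted p = 0.032) and Krt71 as lower (-1.43, adjusted p = 0.013), and without epidermis replicate 2 Krt77 passed as higher (3.16, adjusted p = 0.049). The stretch of chromosome 15 that holds the Ly6 and Slurp genes was split, with 7 of its 12 tested genes higher and Ly6e and the near-identical Ly6c1 and Ly6c2 lower.

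Proteases of the cornified layer and their inhibitors were both higher in epidermis. Of 24 tested genes of the list of corneocyte proteases and inhibitors, 23 were higher in epidermis (median 4.0, and 5.19 without dermis replicate 2, against -0.42 for all genes). Klk14 stood at 0, 0.43 and 0.28 TPM in dermis and 31.4, 14.7 and 7.85 TPM in epidermis (3.75 ± 0.46, adjusted p = 5.4e-04, and 3.87 without dermis replicate 2). St14, the membrane protease matriptase that acts upstream of filaggrin processing, stood at 2.41, 10.3 and 2.82 TPM and 26.8, 33.1 and 27.2 TPM (2.50 ± 0.45, adjusted p = 0.0031, and 3.05 without it). Spint2, an inhibitor of matriptase, was at 10.7, 46.8 and 18.0 TPM and 152, 141 and 132 TPM (2.70 ± 0.48, adjusted p = 0.0029, and 3.26 without it). In these genes every epidermis library stood above every dermis library. Klk14 was tested through epidermis alone, so its call is no support for a difference. Spink5, the inhibitor of kallikreins that is lost in Netherton syndrome, had a difference of 4.63 ± 0.97 (adjusted p = 0.0057, and 5.78 without dermis replicate 2) from 14.8, 89.9 and 3.52 TPM in dermis and 461, 614 and 347 TPM in epidermis. Cst6, an inhibitor of cysteine proteases, was at 13.2, 61.7 and 5.75 TPM and 289, 284 and 249 TPM (3.91 ± 0.73, adjusted p = 0.0035, and 4.81 without it).

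Genes of desmosomes and tight junctions were higher in epidermis. Of 13 desmosome genes tested 11 were higher in epidermis and none lower (median 3.70, and 4.58 without dermis replicate 2), and of 10 tight junction genes 8 were higher and none lower (median 2.03, and 2.60 without it). Evpl, which encodes envoplakin, a plakin that links desmosomes to the envelope, stood at 2.25, 14.1 and 0.90 TPM in dermis and 68.8, 58.3 and 60.6 TPM in epidermis (3.81 ± 0.69, adjusted p = 0.0033, and 4.67 without dermis replicate 2). Cldn4, a tight junction claudin, was at 2.88, 45.8 and 1.74 TPM and 154, 255 and 168 TPM (4.57 ± 0.99, adjusted p = 0.0067, and 5.85 without it). Dermis replicate 2 was by far the highest dermis library in both. Tjp1, a scaffold of junctions in many tissues, did not pass (difference -0.16, adjusted p = 0.63), with 13.7, 12.2 and 7.65 TPM in dermis and 8.96, 11.8 and 8.41 TPM in epidermis, which overlapped.

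The adherens junction list held cadherins on both sides. Cdh1, E-cadherin, stood at 2.48, 15.4 and 2.66 TPM in dermis and 49.7, 54.4 and 49.8 TPM in epidermis (3.14 ± 0.58, adjusted p = 0.0033, and 3.87 without dermis replicate 2). Cdh11, a cadherin of fibroblasts, stood at 65.5, 53.1 and 91.8 TPM and 0.11, 0 and 0.40 TPM (-5.91 ± 0.27, adjusted p = 1.2e-05). Cdh2, N-cadherin, was at 10.6, 7.59 and 11.8 TPM and 0, 0 and 0.02 TPM (-3.43 ± 0.21, adjusted p = 2.6e-05). None of these 3 cadherins overlapped between layers. Cdh11 and Cdh2 were the 2 genes of the list tested through dermis alone, so their calls are no support for a difference. Cdh3, P-cadherin of basal keratinocytes, was at 5.07, 6.40 and 7.18 TPM and 7.10, 8.31 and 11.1 TPM, with overlap, and did not pass (0.44, adjusted p = 0.15), but was called higher under median-of-ratios scaling (0.85) and quantile normalization (1.05). Of the 10 genes of that list 3 were higher, 2 lower and 5 not called, with a median of 0.39, and 6 were higher under either of these scalings.

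The list for hemidesmosomes and the basement membrane, which anchor the basal layer, was mostly on the dermal side: 14 of 24 genes were lower in epidermis and 3 higher, with a median of -1.79. Of these 24, 3 were tested through dermis alone, and the higher genes numbered 6 under median-of-ratios scaling and 5 under quantile normalization. The 3 higher genes were Col17a1, a transmembrane collagen of hemidesmosomes, Lamb3, a chain of the laminin of epithelial basement membranes, and Fras1, a matrix protein of the same junction. Col17a1 stood at 10.3, 28.4 and 1.92 TPM in dermis and 83.1, 35.4 and 71.8 TPM in epidermis (2.61 ± 0.79, adjusted p = 0.026, and 3.40 without dermis replicate 2). Its difference was 1.73 without dermis replicate 3, and its call was lost without dermis replicate 1 (2.71, adjusted p = 0.065), epidermis replicate 1 (2.38, adjusted p = 0.078) or epidermis replicate 3 (2.48, adjusted p = 0.067). The call for Lamb3 (1.78, adjusted p = 0.033, and 2.12 without dermis replicate 2) was lost without dermis replicate 3 (1.14, adjusted p = 0.051), epidermis replicate 1 (1.58, adjusted p = 0.097) or epidermis replicate 3 (1.63, adjusted p = 0.085), and that for Fras1 (1.71, adjusted p = 0.013, and 2.09 without dermis replicate 2) without dermis replicate 1 (1.59, adjusted p = 0.051). Col4a1, a chain of the network-forming collagen of all basement membranes, was at 380.1, 289 and 224 TPM in dermis and 2.46, 2.01 and 4.46 TPM in epidermis (-6.25 ± 0.30, adjusted p = 1.3e-05). Nid1, which links laminin to that collagen, was at 91.2, 55.6 and 70.5 TPM and 0.14, 0.05 and 0.43 TPM (-5.91 ± 0.25, adjusted p = 1.1e-05). Col7a1, the anchoring fibril collagen, was lower in epidermis but remained well expressed there, at 654, 404 and 512 TPM in dermis and 88.2, 53.8 and 82.3 TPM in epidermis (-2.79 ± 0.28, adjusted p = 2.2e-04). The hemidesmosome integrin genes Itga6 (0.20, adjusted p = 0.48) and Itgb4 (0.42, adjusted p = 0.41) did not pass, and their libraries overlapped.

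Defence genes divided by list: antimicrobial and alarm genes were mostly epidermal, and the interferon response and complement lists dermal. Of 20 tested antimicrobial and alarm genes 15 were higher in epidermis and 3 lower, with a median of 2.65 (2.85 without dermis replicate 2). Of 23 tested interferon response genes 23 were lower in epidermis (20 under quantile normalization), with a median of -2.89, and of 22 complement and coagulation genes 18 were lower and 1 higher. In these lists 4 and 6 genes were tested through dermis alone. Il1f6, which encodes an interleukin-36 cytokine, stood at 38.5, 501 and 5.97 TPM in dermis and 4477, 5268 and 2387 TPM in epidermis (6.21 ± 1.38, adjusted p = 0.0073, and 7.85 without dermis replicate 2). Il18, a cytokine stored in keratinocytes, was at 25.9, 73.2 and 33.8 TPM and 327, 387 and 225 TPM (2.90 ± 0.41, adjusted p = 0.001, and 3.33 without it). Defb14, an antimicrobial defensin, was at 1.40, 2.72 and 0.85 TPM and 12.2, 12.3 and 11.1 TPM (2.33 ± 0.28, adjusted p = 5.4e-04, and 2.61 without it). The epidermis libraries stood above the dermis libraries in all 3 of these genes. On the dermal side were Pglyrp1, a peptidoglycan-binding protein (-2.12, adjusted p = 0.0012), Rnase4, a secreted ribonuclease (-1.40, adjusted p = 0.0023), and Il1b, the inflammatory cytokine of myeloid cells (-1.40, adjusted p = 0.036). The Il1b libraries stood at 15.8, 4.48 and 12.5 TPM in dermis and 1.96, 4.91 and 2.88 TPM in epidermis. Its call was lost without dermis replicate 1 (-1.07, adjusted p = 0.12), dermis replicate 3 (-1.23, adjusted p = 0.11), epidermis replicate 1 (-1.16, adjusted p = 0.11) or epidermis replicate 3 (-1.36, adjusted p = 0.081), and under median-of-ratios (-0.99) and quantile (-0.73) scaling.

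Lipid enzymes of the barrier were nearly all higher in epidermis. Of 33 genes for ceramides, cholesterol and fatty acids tested, 31 were higher in epidermis, 1 was lower and 1 did not pass, with a median of 2.79 (3.11 without dermis replicate 2). Slc27a4, a fatty acid transporter, stood at 9.10, 17.7 and 8.26 TPM in dermis and 83.3, 98.4 and 68.3 TPM in epidermis (2.79 ± 0.31, adjusted p = 3.6e-04, and 3.11 without dermis replicate 2). Its libraries did not overlap between the layers. The lower gene was Cers4, a ceramide synthase, at 11.7, 12.6 and 12.8 TPM in dermis and 5.03, 5.29 and 5.25 TPM in epidermis (-1.11 ± 0.18, adjusted p = 0.0019). Sptlc2, a subunit of the enzyme that starts sphingolipid synthesis, did not pass (-0.24, adjusted p = 0.33).

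Transcription factors known from keratinocytes were higher in epidermis for 31 of 37 tested, with 2 lower and a median of 2.59 (3.09 without dermis replicate 2). Cebpb, which acts in keratinocyte differentiation, stood at 104, 173 and 95.04 TPM in dermis and 607, 672 and 561 TPM in epidermis (2.34 ± 0.27, adjusted p = 4.2e-04, and 2.61 without dermis replicate 2). Barx2, a homeobox factor of keratinocytes, was at 0.88, 5.04 and 0.32 TPM and 22.9, 24.7 and 24.0 TPM (3.33 ± 0.53, adjusted p = 0.0018, and 3.98 without dermis replicate 2). Rora, a nuclear receptor, was at 14.4, 60.5 and 14.5 TPM and 239, 268 and 191 TPM (3.24 ± 0.54, adjusted p = 0.0021, and 3.90 without it). Each was higher in every epidermis library than in any dermis library. The lower factors were Maf (-0.76, adjusted p = 0.012) and Sox9, a factor of hair follicle cells (-1.14, adjusted p = 0.041). Neither call held with quantile normalization (-0.47 and -0.68) or with median-of-ratios scaling (-0.30 and -0.70). That for Maf was lost without epidermis replicate 1 (-0.66, adjusted p = 0.059), and that for Sox9 without dermis replicate 1 (-1.31, adjusted p = 0.057), dermis replicate 3 (-0.75, adjusted p = 0.098), epidermis replicate 1 (-1.14, adjusted p = 0.094) or epidermis replicate 2 (-0.91, adjusted p = 0.12). Of 36 tested mesenchymal transcription factors 34 were lower in epidermis and none higher, with a median of -2.75, and 26 of the 36 were tested through dermis alone. Twist2, a factor of dermal fibroblasts, stood at 71.4, 88.2 and 50.02 TPM in dermis and 0.14, 0 and 0.17 TPM in epidermis (-5.97 ± 0.25, adjusted p = 1.1e-05). Ebf1 was at 165, 137 and 99.8 TPM and 0.59, 0.83 and 0.88 TPM (-6.23 ± 0.24, adjusted p = 1.1e-05). Snai2 (-1.01, adjusted p = 0.065) did not pass, but did without epidermis replicate 3 (-1.35, adjusted p = 0.023) and when the 50 most abundant genes were left out of the scaling.

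Splicing factors known to mark epithelium and mesenchyme lay on opposite sides. Esrp1, the epithelial splicing regulator, stood at 3.53, 16.6 and 1.17 TPM in dermis and 74.4, 88.6 and 78.2 TPM in epidermis (3.86 ± 0.69, adjusted p = 0.0029, and 4.69 without dermis replicate 2). Celf2 was at 38.7, 29.3 and 47.8 TPM and 1.33, 1.42 and 3.57 TPM (-3.72 ± 0.33, adjusted p = 1.2e-04), and Rbpms, a regulator of splicing in smooth muscle, at 31.1, 29.2 and 28.8 TPM and 1.44, 1.78 and 2.44 TPM (-3.42 ± 0.21, adjusted p = 2.4e-05). Of the 10 genes of that list 3 were higher and 6 lower, and 1 was tested through dermis alone. The libraries of the layers did not overlap in the 3 genes named.

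**Figure D3:**
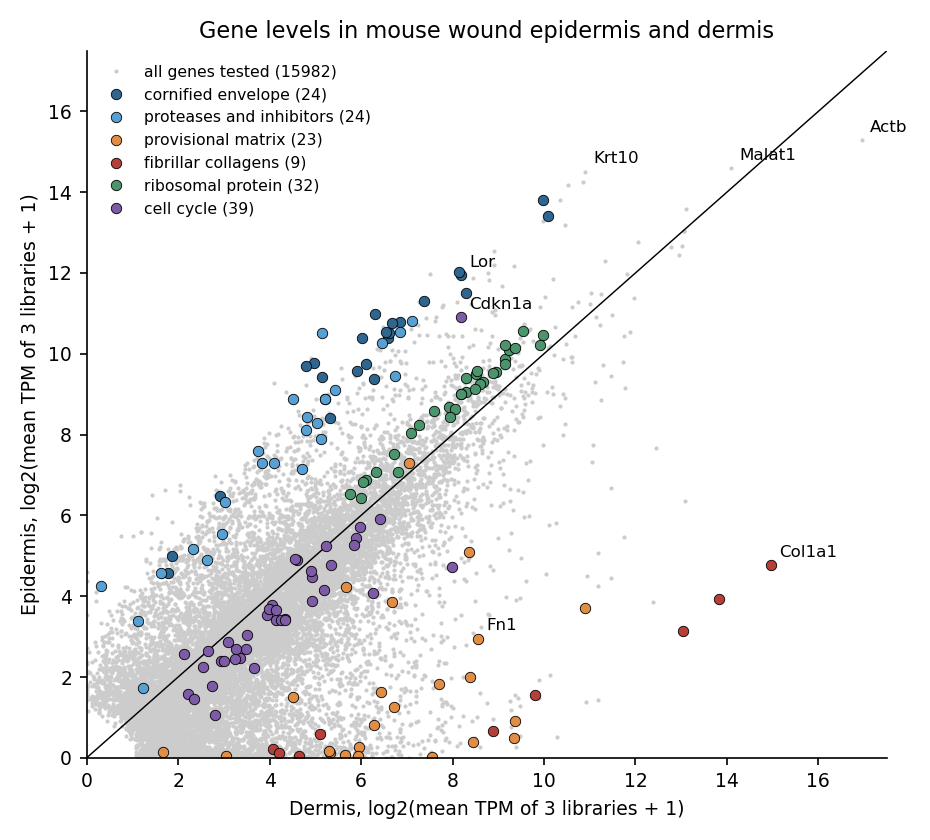
Each point is a gene, at log2(mean TPM + 1) over the 3 dermis libraries (horizontal) and the 3 epidermis libraries (vertical), with the line of equal level. Cornified envelope and protease genes (blue) lie above the line, fibrillar collagens (red) and provisional matrix genes (orange) mostly below 4 on the epidermis axis, and ribosomal protein genes (green) just above the line.

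Matrix genes were dermal, from the collagens themselves to the enzymes that trim and cross-link them. Of 9 fibrillar collagen genes tested 9 were lower in epidermis, with a median of -8.26, and 4 of the 9 were tested through dermis alone. Col5a1, a collagen that sets the width of fibrils, stood at 964, 755 and 971 TPM in dermis and 1.67, 0.68 and 3.41 TPM in epidermis (-8.37 ± 0.35, adjusted p = 1.1e-05). Among 24 genes of collagen processing and cross-linking 22 were lower and none higher (median -3.48), with 9 of the 24 tested through dermis alone. Pcolce, an enhancer of the protease that trims procollagen, was at 349, 220.4 and 464 TPM and 0.59, 0.72 and 1.38 TPM (-7.47 ± 0.32, adjusted p = 1.1e-05). Lox, which cross-links collagen and elastin, was at 128, 67.2 and 137 TPM and 0.07, 0.13 and 0 TPM (-6.64 ± 0.30, adjusted p = 1.2e-05). The dermis libraries were all above the epidermis libraries by a wide margin. P3h2, a prolyl hydroxylase, did not pass, at 8.57, 12.9 and 5.34 TPM in dermis and 12.0, 8.87 and 11.8 TPM in epidermis (difference 0.32, adjusted p = 0.42).

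Genes of the provisional wound matrix followed the same side. Of 23 tested, 11 of them through dermis alone, 22 were lower in epidermis, with a median of -5.31, and the remaining gene was Cd44, the hyaluronan receptor (0.24, adjusted p = 0.5). Fn1, fibronectin, stood at 389.9, 292 and 447 TPM in dermis and 5.91, 6.76 and 7.48 TPM in epidermis (-5.59 ± 0.22, adjusted p = 1.1e-05). Vcan, the proteoglycan versican, was at 62.9, 52.5 and 68.9 TPM and 0.09, 0.08 and 0.46 TPM (-5.70 ± 0.22, adjusted p = 1.1e-05), and Thbs2, a thrombospondin of fibroblasts, at 855, 509.8 and 608 TPM and 0.63, 0.36 and 1.69 TPM (-8.47 ± 0.32, adjusted p = 1.1e-05). Proteins of the network that binds cells to fibrils stood out among the genes outside the lists. Col6a1, a chain of the microfibrillar collagen, was at 954, 798 and 1108 TPM and 1.17, 0.29 and 3.95 TPM (-8.62 ± 0.47, adjusted p = 1.7e-05), with Col6a2 at -8.38 and Col6a3 at -7.90. Lum, a small proteoglycan that binds collagen and had the smallest adjusted p of all genes, was at 1177, 999 and 1536 TPM in dermis and 0.32, 0.37 and 0.59 TPM in epidermis (-9.74 ± 0.22, adjusted p = 9.6e-06).

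Enzymes that degrade matrix were also dermal, with 21 of 24 tested lower in epidermis, none higher and a median of -3.08, and 6 of the 24 were tested through dermis alone. Mmp2, a gelatinase of fibroblasts, stood at 427, 259.6 and 501 TPM in dermis and 7.41, 7.62 and 10.3 TPM in epidermis (-5.36 ± 0.29, adjusted p = 1.7e-05). Ctsk, a collagen-cleaving cathepsin, was at 194, 127 and 224 TPM and 0.53, 0.09 and 0.81 TPM (-6.94 ± 0.30, adjusted p = 1.1e-05), and Mmp11, a stromelysin of wound and tumour stroma, at 167, 86.1 and 89.9 TPM and 0.41, 0.47 and 1.02 TPM (-6.09 ± 0.31, adjusted p = 1.5e-05). Mmp10, an enzyme known from migrating keratinocytes, was low in every library, at 1.40, 2.32 and 1.32 TPM and 3.86, 2.72 and 1.88 TPM, and did not pass (0.50, adjusted p = 0.14), but was called higher under median-of-ratios scaling (0.82) and quantile normalization (1.27). Plau, the urokinase gene, did not pass either (0.01, adjusted p = 0.98), with dermis replicate 1 the highest library at 89.1 TPM and dermis replicate 3 the lowest at 21.1 TPM. Contractile and cytoskeletal genes of the mechanics list were lower for 17 of 25, with 2 higher and a median of -1.50. Of the 25, 4 were tested through dermis alone, and 13 of the lower genes reached 1 TPM in an epidermis library. Vim, vimentin, was at 1549, 669 and 959 TPM and 16.9, 20.6 and 30.3 TPM (-5.44 ± 0.36, adjusted p = 3.3e-05), and Myh14, a non-muscle myosin, went the other way at 0.04, 4.88 and 0.25 TPM and 9.88, 16.7 and 12.0 TPM (2.79 ± 0.64, adjusted p = 0.0083, and 3.58 without dermis replicate 2). Actb, named above for its share of the libraries, had a difference of -1.65 ± 0.36 (adjusted p = 0.0072) that was not called with quantile normalization (0.00) or with median-of-ratios scaling (-1.18).

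Hox genes, which carry positional identity along the body, differed within clusters. Of 19 tested, 5 of them through dermis alone, 10 were lower in epidermis, 1 higher and 8 not called. The shares lower and higher were 52.6% and 5.26%, against 39.3% and 17.0% of all genes tested. The number higher was 5 under quantile normalization and 2 under median-of-ratios scaling. Hoxa10 stood at 73.2, 34.4 and 64.0 TPM in dermis and 0.04, 0.12 and 0.13 TPM in epidermis (-5.66 ± 0.30, adjusted p = 1.7e-05), whereas Hoxa7 of the same cluster was at 10.3, 16.2 and 9.64 TPM and 21.6, 11.7 and 26.3 TPM and did not pass (0.64, adjusted p = 0.15). Hoxa7 was called higher without epidermis replicate 2 (0.96, adjusted p = 0.031) and under median-of-ratios scaling (1.08) and quantile normalization (1.11). Hoxd8 was at 48.7, 46.6 and 41.0 TPM and 0.37, 0 and 1.16 TPM (-5.01 ± 0.30, adjusted p = 2.4e-05), and 4 of 4 tested Hoxd genes were lower. The whole Hoxd stretch held only 5.1e-05%, 3.3e-05% and 0.000141% of the epidermis libraries. Its genes other than Hoxd8 were therefore tested through dermis alone, and their calls are no support for a difference. All 3 epidermis libraries were near 0 for Hoxa10 and Hoxd8. Hoxc10 (-4.61, adjusted p = 1.1e-05) and Hoxc13, known from hair and nail keratinocytes, lay on opposite sides within the Hoxc cluster. Hoxc13 was at 0.14, 2.04 and 0.71 TPM in dermis and 6.27, 4.43 and 4.53 TPM in epidermis (1.73 ± 0.36, adjusted p = 0.0058, and 2.11 without dermis replicate 2). In the Hoxb cluster no protein-coding gene passed.

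Imprinted genes, which are read from 1 parental copy and act mainly in growth, were lower in epidermis for 13 of 14 tested, with a median of -4.01, and 6 of the 14 were tested through dermis alone. Meg3, a non-coding RNA, stood at 485, 305 and 634 TPM in dermis and 0.43, 0.34 and 2.05 TPM in epidermis (-7.98 ± 0.40, adjusted p = 1.4e-05). Cdkn1c, a cell cycle inhibitor, was at 168, 164 and 419 TPM and 1.63, 0.37 and 1.03 TPM (-6.87 ± 0.42, adjusted p = 2.6e-05). Sgce, a sarcoglycan, was at 90.3, 78.0 and 114 TPM and 0.20, 0 and 0.15 TPM (-6.40 ± 0.22, adjusted p = 1.1e-05). In all 3 the lowest dermis library was far above the highest epidermis library. The exception was Phlda2, at 2.72, 5.56 and 0.19 TPM in dermis and 20.1, 31.9 and 18.9 TPM in epidermis (2.97 ± 0.59, adjusted p = 0.0048, and 3.51 without dermis replicate 2). Rian (-6.26, adjusted p = 1.3e-05) and Mirg (-5.33, adjusted p = 1.3e-05), non-coding RNAs of the same imprinted locus as Meg3, were lower as well. Among the 16 non-coding RNAs listed, 4 were higher and 8 lower in epidermis, with a median of -0.14 that was 0.18 under median-of-ratios scaling and 0.22 under quantile normalization. Of the 16, 3 were tested through dermis alone. Neat1, the scaffold of nuclear paraspeckles, was the one with the largest positive difference, at 56.9, 129 and 38.5 TPM and 544, 586 and 292 TPM (2.77 ± 0.48, adjusted p = 0.0026, and 3.25 without dermis replicate 2).

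**Figure D4:**
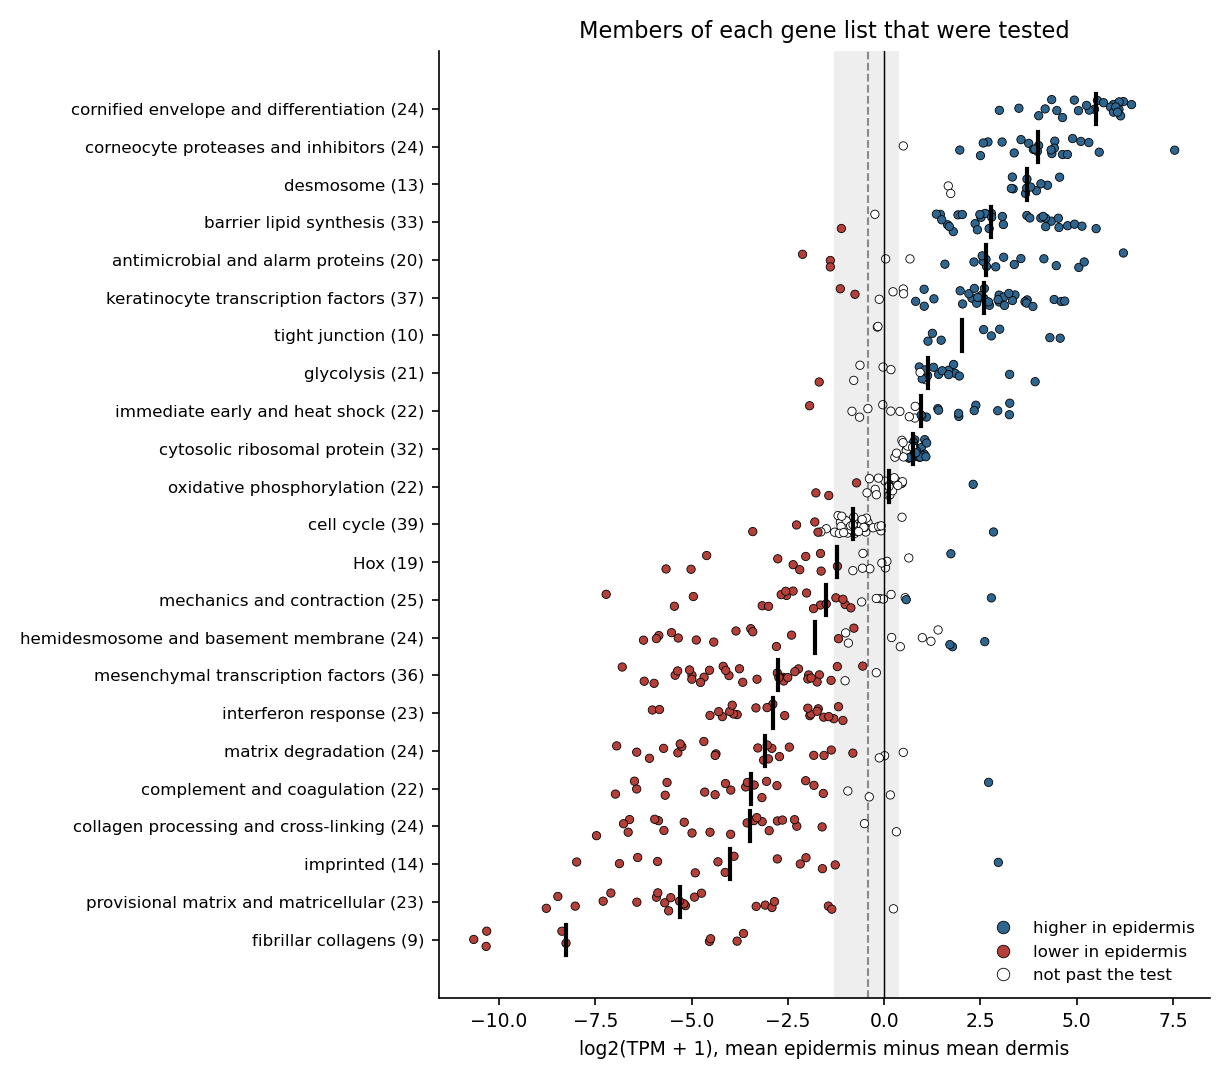
Each point is a tested member of the list named at the left (number tested in brackets), placed by its difference in log2(TPM + 1), epidermis minus dermis. Black bars are list medians, from 5.50 for the cornified envelope to -8.26 for fibrillar collagens, the grey band spans the middle quartiles of all genes, and the dashed line is their median of -0.42. Blue and red points passed limma's test, and open points did not.

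Markers of the cells that live in the dermis were near 0 in the epidermis libraries in many cases, and so passed the filter through dermis alone. That was so for 5 of 11 tested fibroblast markers, 6 of 11 blood endothelial, 5 of 6 lymphatic endothelial, 7 of 7 mast cell and 6 of 8 myofibroblast or smooth muscle markers, so the number of them called is no evidence of a difference. The remaining 6 fibroblast and 5 blood endothelial markers, which reached 1 TPM in an epidermis library too, were lower in epidermis. The summed level of the 9 mast cell markers was 296, 172 and 577 TPM in dermis and 0.95, 0.27 and 0.36 TPM in epidermis. Cma1, a mast cell chymase, stood at 132, 81.2 and 254 TPM in dermis and 0.12, 0 and 0.07 TPM in epidermis (-7.05 ± 0.40, adjusted p = 2.0e-05). Rgs5, a pericyte gene, was among the most abundant dermal transcripts at 7141, 5465 and 3448 TPM, against 16.2, 3.32 and 20.7 TPM in epidermis (-8.77 ± 0.62, adjusted p = 4.2e-05). Dermis replicate 3 held the most mast cell RNA and the least Rgs5. Ndufa4l2, listed as a pericyte marker, was higher in epidermis, at 67.3, 155 and 39.1 TPM in dermis and 556, 343 and 569 TPM in epidermis (2.67 ± 0.49, adjusted p = 0.0034, and 3.19 without dermis replicate 2). Ccl21a, a chemokine of lymphatic vessels with near-identical copies, was at 71.1, 55.8 and 171 TPM and 0.07, 0 and 0 TPM (-6.44 ± 0.40, adjusted p = 2.7e-05).

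Immune markers did not all lie on the dermal side. Of 12 macrophage markers, 4 of them tested through dermis alone, 11 were lower and 1 was higher in epidermis. Among the lower was Lyz2, lysozyme, at 1268, 692 and 1388 TPM in dermis and 5.83, 1.01 and 2.62 TPM in epidermis (-8.18 ± 0.48, adjusted p = 2.1e-05). T cell receptor genes diverged: Trac, of the alpha chain, was at 33.7, 26.1 and 33.8 TPM in dermis and 4.23, 3.61 and 8.19 TPM in epidermis (-2.40 ± 0.30, adjusted p = 6.2e-04), while Trbc2, of the beta chain, was at 6.70, 61.7 and 24.8 TPM and 123, 74.0 and 134 TPM (2.22 ± 0.70, adjusted p = 0.031, and 2.94 without dermis replicate 2). The Trbc2 difference was 1.42 without dermis replicate 1, and its call was lost without dermis replicate 3 (2.29, adjusted p = 0.07) or without epidermis replicate 1 (2.12, adjusted p = 0.082), 2 (2.48, adjusted p = 0.0501) or 3 (2.05, adjusted p = 0.08). Trdc, of the delta chain used by the resident T cells of mouse epidermis, was low in all libraries, at 1.32, 1.95 and 2.03 TPM and 0.94, 0.68 and 2.07 TPM, and did not pass (-0.35, adjusted p = 0.3). Cd207, langerin of Langerhans cells, was at 1.23, 6.98 and 3.90 TPM and 7.62, 6.96 and 14.4 TPM, did not pass (1.2, adjusted p = 0.073), and passed without dermis replicate 2 (1.62, adjusted p = 0.023). Cd74, the invariant chain of antigen presentation, was abundant in both layers and lower in epidermis, at 2524, 2017 and 3944 TPM in dermis and 498, 503 and 1111 TPM in epidermis (-2.06 ± 0.41, adjusted p = 0.0046). Neutrophil genes were mostly low: 7 of 11 were too low to be tested and Ly6g and Elane were listed at 0 in all 6 libraries. Csf3r, the receptor for their growth factor, was lower (-3.10, adjusted p = 1.0e-04), but it was tested through dermis alone, so its call is no support for a difference. Cxcr2 was higher in epidermis, at 9.80, 11.2 and 13.01 TPM and 27.0, 31.9 and 28.8 TPM (1.30 ± 0.19, adjusted p = 0.0014, and 1.29 without dermis replicate 2).

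Merkel cell, fat and skeletal muscle markers and most hair shaft keratins were low. Only 1 of 6 Merkel cell, 3 of 12 skeletal muscle, 4 of 10 adipocyte and 6 of 19 hair shaft or inner root sheath genes reached the level for testing. Adipoq, Lep and Cidec of fat cells stood at 0.12 TPM or less in all libraries. Acta1 and Tnnc2, genes of skeletal muscle, were at 15.8 and 16.9 TPM in dermis replicate 3 and at 0.54 TPM or less in the other 5 libraries. Of the 6 hair shaft or inner root sheath genes tested 4 were higher in epidermis and none lower (5 higher under quantile normalization, and 1 lower without dermis replicate 2). Those not called were the keratin gene Krt71 (-1.01) and Tchh (0.35). The 4 higher genes were transcription factors, and no keratin of the list was called higher. One was Dlx3, a homeobox factor of hair matrix and differentiating keratinocytes, at 2.34, 31.5 and 1.34 TPM in dermis and 143, 215 and 139 TPM in epidermis (4.69 ± 0.92, adjusted p = 0.0043, and 5.87 without dermis replicate 2). Of 8 tested genes of the outer root sheath and follicle stem cells, 2 of them tested through dermis alone, 6 were lower, and the keratins Krt17 and Krt79 were not called. Cd34 stood at 119, 114 and 111 TPM in dermis and 1.38, 1.26 and 3.02 TPM in epidermis (-5.38 ± 0.26, adjusted p = 1.3e-05), though endothelial cells and fibroblasts also express it, and Lgr5 was at 18.4, 7.97 and 16.1 TPM and 0.17, 0.07 and 0.08 TPM (-3.70 ± 0.31, adjusted p = 9.6e-05). Of 5 tested dermal papilla genes, 2 of them tested through dermis alone, 4 were lower and 1 higher in epidermis. Crabp1, a retinoic acid-binding protein of dermal papilla and embryonic-type fibroblasts, was at 281, 211 and 256 TPM and 0.63, 0.54 and 3.14 TPM (-6.83 ± 0.40, adjusted p = 2.1e-05), while the papilla genes Sox2, Alx4 and Corin were at 0.44 TPM or less in every library.

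Ligand and receptor transcripts were placed side by side in 53 pairs, chosen after their values had been seen, so their counts are a description. In 21 pairs both partners were lower in epidermis and in 6 both were higher. In 5 the ligand was higher and the receptor lower, in 4 the ligand was lower and the receptor higher, and in 17 at least 1 partner did not pass. Among all genes tested, 17.0% were higher and 39.3% lower in epidermis. Of 67 ligand and 78 receptor genes listed and tested, 19 and 21 were tested through dermis alone. Their calls are no support for a difference. The pairs with both partners higher were 4 ligands of the epidermal growth factor receptor, Fgf1 with Fgfr3, and Wnt7b with Fzd10. The call for Fgf1 (1.03, adjusted p = 0.044, and 1.29 without dermis replicate 2) was lost without dermis replicate 1 (0.78, adjusted p = 0.14), dermis replicate 3 (1.0, adjusted p = 0.1), epidermis replicate 1 (0.76, adjusted p = 0.14) or epidermis replicate 2 (1.01, adjusted p = 0.11). Areg, amphiregulin, stood at 0.68, 0.83 and 0.23 TPM in dermis and 7, 17.4 and 9.86 TPM in epidermis (2.91 ± 0.34, adjusted p = 4.5e-04, and 3.02 without dermis replicate 2). Ereg, epiregulin, was at 0.68, 10.3 and 0.19 TPM and 46.9, 189.9 and 25.4 TPM (4.46 ± 1.00, adjusted p = 0.0076, and 5.46 without dermis replicate 2). Egfr itself was at 3.16, 2.91 and 3.78 TPM and 6.28, 6.41 and 5.95 TPM (0.76 ± 0.19, adjusted p = 0.012, and 0.69 without dermis replicate 2). The layers did not overlap in Areg, Ereg or Egfr. Areg was tested through epidermis alone, so its call is no support for a difference.

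Pairs that crossed the layers ran in both directions. Vegfa, the growth factor for blood vessels, stood at 1.13, 2.74 and 1.27 TPM in dermis and 9.07, 26.6 and 9.04 TPM in epidermis (2.42 ± 0.45, adjusted p = 0.0034, and 2.68 without dermis replicate 2), and its endothelial receptor gene Kdr at 16.7, 12.8 and 8.70 TPM and 0.12, 0.02 and 0.42 TPM (-3.50 ± 0.28, adjusted p = 7.1e-05). Il1a, interleukin-1 alpha, was at 0, 11.03 and 0.14 TPM and 20.1, 50.2 and 19.5 TPM (3.55 ± 0.95, adjusted p = 0.016, and 4.72 without dermis replicate 2), and its receptor gene Il1r1 at 12.98, 20.8 and 15.2 TPM and 2, 1.52 and 3.35 TPM (-2.41 ± 0.28, adjusted p = 4.7e-04). The Il1a call was lost without dermis replicate 1 (2.92, adjusted p = 0.059), dermis replicate 3 (3.02, adjusted p = 0.056) or epidermis replicate 2 (3.12, adjusted p = 0.058). In the other direction, Nrg1, neuregulin, was at 61.1, 33.0 and 99.4 TPM in dermis and 3.97, 2.91 and 9.89 TPM in epidermis (-3.32 ± 0.51, adjusted p = 0.0015), and its receptor gene Erbb3 at 1.22, 6.25 and 3.43 TPM and 17.7, 19.7 and 16.5 TPM (2.19 ± 0.41, adjusted p = 0.0037, and 2.59 without dermis replicate 2). Dermis and epidermis libraries were apart in each of these genes, but Kdr was tested through dermis alone.

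**Figure D5:**
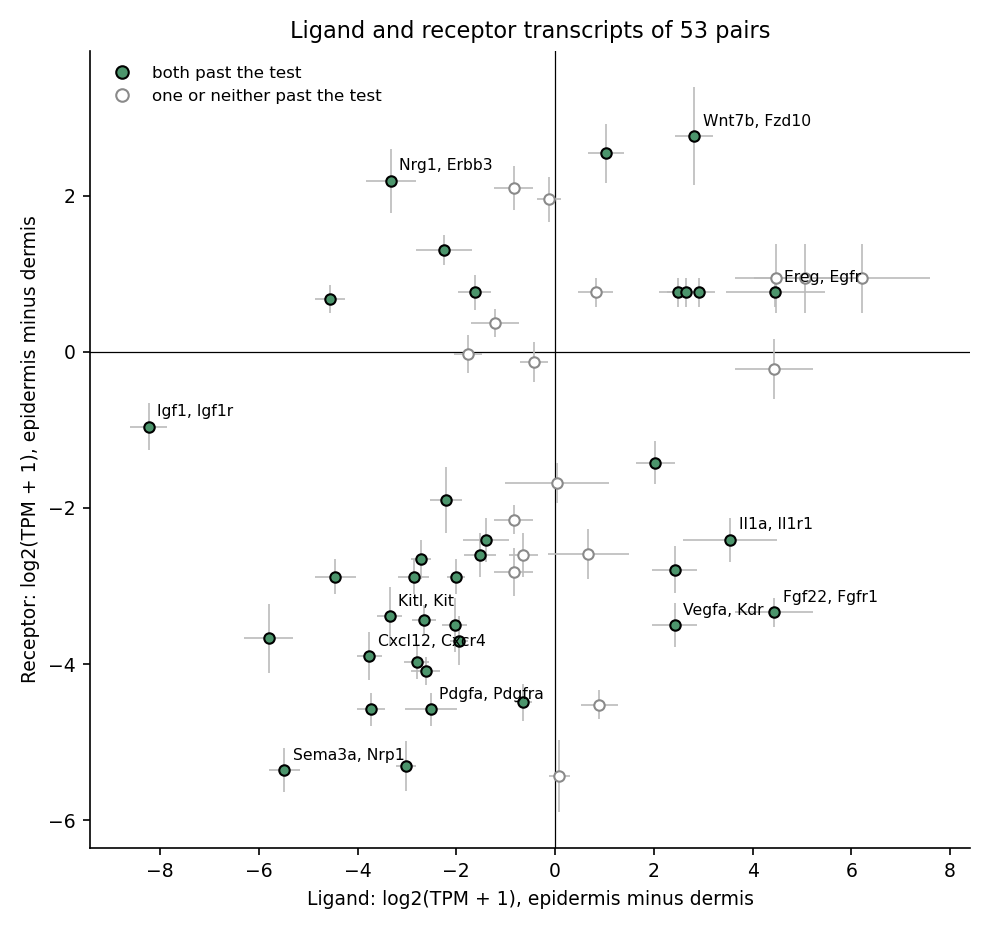
Each point is 1 of 53 pairs, placed by the difference in log2(TPM + 1), epidermis minus dermis, of its ligand (horizontal) and receptor (vertical), with limma's standard errors as bars. Filled points are pairs in which both genes passed the test: 21 lie at the lower left, 6 at the upper right, 5 at the lower right and 4 at the upper left. Genes tested through dermis alone are included.

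Growth factor pairs of the dermis were led by Igf1. Igf1, insulin-like growth factor, stood at 302, 243 and 619.8 TPM in dermis and 0.09, 0.04 and 0.50 TPM in epidermis (-8.23 ± 0.37, adjusted p = 1.2e-05). Its receptor gene Igf1r was present in both layers, at 19.1, 30.9 and 17.49 TPM and 9.66, 8.75 and 14.6 TPM (-0.96 ± 0.29, adjusted p = 0.028). That call was lost without dermis replicate 1 (-1.05, adjusted p = 0.052), dermis replicate 2 (-0.71, adjusted p = 0.071), epidermis replicate 1 (-0.89, adjusted p = 0.089) or epidermis replicate 2 (-0.82, adjusted p = 0.079), and under median-of-ratios (-0.51) and quantile (-0.51) scaling. Sema3a, a guidance factor, was at 73.0, 57.3 and 33.4 TPM and 0.06, 0.19 and 0.31 TPM (-5.48 ± 0.31, adjusted p = 2.0e-05), and its receptor gene Nrp1 differed by -5.36 (adjusted p = 1.6e-05). Mdk, midkine, was at 255, 137 and 451 TPM and 0.89, 0.75 and 0.52 TPM (-7.20 ± 0.41, adjusted p = 2.0e-05). Igf1, Sema3a and Mdk were tested through dermis alone. For Hgf (-1.76, adjusted p = 0.0017) the receptor gene Met was low in both layers, at 2.69, 1.66 and 1.84 TPM and 1.93, 1.38 and 2.75 TPM, and did not pass (-0.03, adjusted p = 0.92), but was called higher under quantile normalization (0.77). Among other receptors, Il22ra1 (1.38, adjusted p = 8.8e-04, and 1.42 without dermis replicate 2) and Epha2 (1.95, adjusted p = 0.0014, and 2.25 without dermis replicate 2) were higher in epidermis, and Pth1r, the receptor for parathyroid hormone-related peptide, was lower (-4.52, adjusted p = 1.1e-05).

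Few cell cycle genes passed the test. Of 39 tested 34 did not pass, 4 were lower and 1 was higher in epidermis, with a median of -0.81. The count rested on epidermis replicate 3, since 28 were lower without it, with a median of -1.40. The median was -0.31 without epidermis replicate 2 and -0.29 under quantile normalization. The higher gene was Cdkn1a, the cell cycle inhibitor p21, at 252, 469 and 150.1 TPM in dermis and 2325, 2081 and 1360.4 TPM in epidermis (2.84 ± 0.44, adjusted p = 0.0016, and 3.26 without dermis replicate 2). The lower genes were cyclins and E2f1. Ccnd2, a D-type cyclin, was at 246, 245 and 272 TPM and 31.6, 11.2 and 33.7 TPM (-3.41 ± 0.40, adjusted p = 4.7e-04). The epidermis libraries differed among themselves: Ccnb1, cyclin B1, was at 23.4, 28.5 and 18.0 TPM in dermis and 17.7, 3.36 and 64.8 TPM in epidermis, with epidermis replicate 2 the lowest and replicate 3 the highest of all 6 libraries, and did not pass (-0.45, adjusted p = 0.68). Mki67 was low in all, at 7.35, 4.16 and 2.91 TPM and 2.34, 1.52 and 7.39 TPM (-0.42, adjusted p = 0.49).

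Glycolysis genes were mostly higher in epidermis, and the calls among oxidative phosphorylation genes depended on the scaling. Of 21 glycolysis genes 14 were higher in epidermis and 1 lower, with a median of 1.13, and 1 was tested through dermis alone. Hk2, hexokinase, stood at 29.8, 276 and 29.9 TPM in dermis and 694, 1761 and 745 TPM in epidermis (3.92 ± 0.87, adjusted p = 0.0073, and 4.98 without dermis replicate 2). Eno1, enolase, was at 202, 378 and 189 TPM and 874, 814 and 1185 TPM (1.95 ± 0.32, adjusted p = 0.0022, and 2.27 without dermis replicate 2). Of the glucose transporter genes, Slc2a1 was higher at 14.6, 33.0 and 8.66 TPM and 54.2, 50.7 and 81.0 TPM (1.84 ± 0.46, adjusted p = 0.012, and 2.33 without dermis replicate 2), and Slc2a3 was lower at 4.14, 1.94 and 2.49 TPM and 0.12, 0.09 and 0.30 TPM (-1.69 ± 0.24, adjusted p = 0.0012). Slc2a3 was the gene tested through dermis alone, so its call is no support for a difference. Of 22 oxidative phosphorylation genes 18 did not pass, with a median of 0.12. Under median-of-ratios scaling 12 were higher and 2 lower (median 0.60), and under quantile normalization 4 were higher and 5 lower (median -0.07). The 3 lower genes on the TPM scale, Sdha, Sdhb and Sdhc, all encode subunits of succinate dehydrogenase, and Sdhb stood at 206, 238 and 336 TPM in dermis and 93.5, 36.9 and 116 TPM in epidermis (-1.77 ± 0.44, adjusted p = 0.011). The call for Sdhc (-1.44) was lost without dermis replicate 2 (-1.36, adjusted p = 0.056) or 3 (-1.28, adjusted p = 0.074). That for Sdha (-0.71) held without epidermis replicate 3 and was lost without any of the other libraries (-0.78, -0.73 and -0.63 without dermis replicates 1, 2 and 3, and -0.68 and -0.58 without epidermis replicates 1 and 2) and under median-of-ratios scaling (-0.25). The higher gene on that scale was Ndufa4, at 270.0, 734 and 381 TPM and 2238, 2269.6 and 1834 TPM (2.31 ± 0.38, adjusted p = 0.002, and 2.71 without dermis replicate 2). Cytosolic ribosomal protein genes were higher for 24 of 32 and lower for none, with a median of 0.76. That count was 32 under median-of-ratios scaling, 14 under quantile normalization, 14 with the replicate number as a block, 7 without dermis replicate 1, 9 without dermis replicate 3, and 12, 14 and 11 without epidermis replicates 1, 2 and 3. Rps2 was at 363, 399 and 342 TPM and 687, 788 and 825 TPM (1.05 ± 0.20, adjusted p = 0.0035, and 1.12 without dermis replicate 2).

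Genes of stress handling were mixed. Of 25 redox genes 9 were higher and 6 lower in epidermis. Gpx3, a secreted glutathione peroxidase, stood at 358, 496 and 1015 TPM in dermis and 0.50, 0.18 and 1.38 TPM in epidermis (-8.45 ± 0.43, adjusted p = 1.5e-05), while its cytosolic relative Gpx1 was at 239, 320.2 and 288 TPM and 509, 487 and 736 TPM (1.01 ± 0.24, adjusted p = 0.01, and 1.11 without dermis replicate 2). Cyp2b19, a cytochrome of mouse keratinocytes, was at 0.87, 27.9 and 1.47 TPM and 212, 132 and 76.5 TPM (4.67 ± 1.00, adjusted p = 0.0064, and 5.92 without dermis replicate 2). Hspa1a, an inducible heat shock protein, was at 22.1, 33.9 and 14.7 TPM and 265, 202 and 206 TPM (3.26 ± 0.31, adjusted p = 1.8e-04, and 3.56 without dermis replicate 2). These genes did not overlap between the layers, and the split of reads between Hspa1a and its near-identical neighbour Hspa1b is uncertain. Of 22 tested immediate early and heat shock genes 11 were higher and Nr4a1 alone was lower (-1.93, adjusted p = 0.0092). How long each tissue was held before homogenisation is not in the labels, and its part in these values was not tested. Complement and clotting genes were lower for 18 of 22, with a median of -3.46, and the higher gene was F3, tissue factor, which starts clotting. F3 stood at 6.57, 27.1 and 11.2 TPM in dermis and 119, 72.6 and 81.8 TPM in epidermis (2.71 ± 0.47, adjusted p = 0.0027, and 3.23 without dermis replicate 2).

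Outside the lists, the epidermal genes with the largest differences included several of known surface function. Arg1, arginase, stood at 10.52, 34.2 and 3.88 TPM in dermis and 701, 665 and 503 TPM in epidermis (5.62 ± 0.65, adjusted p = 4.2e-04, and 6.36 without dermis replicate 2). Serpina12, known as the adipokine vaspin, was at 2.21, 136 and 2.02 TPM and 718, 729 and 549.9 TPM (5.91 ± 1.38, adjusted p = 0.009, and 7.73 without it). Trex2, an exonuclease of keratinocytes, was at 10.2, 260.5 and 4.44 TPM and 1277, 1434 and 1276 TPM (5.72 ± 1.29, adjusted p = 0.008, and 7.41 without it). In each of them dermis replicate 2 was the highest dermis library and still stood below every epidermis library. On the dermal side Itm2a, a membrane protein, was at 487, 431 and 1099 TPM and 0.07, 0 and 0.53 TPM (-9.03 ± 0.39, adjusted p = 1.1e-05), and Ptx3, a soluble pattern receptor of matrix and innate defence, at 289, 118 and 176 TPM and 0, 0 and 0.12 TPM (-7.46 ± 0.33, adjusted p = 1.1e-05).

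At the other end were abundant genes whose difference was close to 0. Sec62, of protein export into the endoplasmic reticulum, stood at 171, 166 and 164 TPM in dermis and 173, 198 and 137 TPM in epidermis (difference 0.00, 95% interval -0.48 to 0.49). Npm1, a nucleolar chaperone, was at 166, 149.8 and 162 TPM and 127, 151 and 207 TPM (-0.01, interval -0.55 to 0.54). H2-D1, a class I antigen-presenting gene, was at 414, 468 and 563 TPM and 527, 397 and 535 TPM (0.01, interval -0.53 to 0.55). The libraries of the layers overlapped, and the genes were chosen for their small difference on the TPM scale. Differences within these intervals were not detectable with 3 libraries a layer.

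Some genes stood apart in 1 library only. In epidermis replicate 2, Ereg, Fabp4 and Tslp were higher than in the other epidermis libraries. Fabp4, a fatty acid-binding protein, was at 58.0, 42.6 and 40.3 TPM in dermis and 155, 528 and 102 TPM in epidermis (2.11 ± 0.57, adjusted p = 0.016, and 2.05 without dermis replicate 2), a call lost without dermis replicate 3 (2.01, adjusted p = 0.055). Tslp, a cytokine released by damaged keratinocytes, was at 7.80, 131 and 8.89 TPM in epidermis and 14.4, 45.5 and 13.7 TPM in dermis and did not pass (0.04, adjusted p = 0.98). In epidermis replicate 3, Krt17, a keratin of activated and follicular keratinocytes, was at 284, 294 and 1575 TPM across the epidermis libraries in their order, against 209, 138 and 22.6 TPM in dermis, and did not pass (2.53, adjusted p = 0.058). In dermis replicate 3, Kera, a corneal and dermal proteoglycan, was at 61.0, 45.6 and 289 TPM across the dermis libraries and listed at 0 in all 3 epidermis libraries. In dermis replicate 1, Bhlhe41, a circadian repressor, was at 999, 273 and 297 TPM across the dermis libraries and 87.4, 277 and 65.3 TPM in epidermis (-1.88 ± 0.68, adjusted p = 0.048). That call was lost without dermis replicate 1 (-1.28, adjusted p = 0.14), dermis replicate 3 (-2.15, adjusted p = 0.066), epidermis replicate 1 (-1.67, adjusted p = 0.13) or epidermis replicate 3 (-1.47, adjusted p = 0.13). It was also lost under median-of-ratios scaling (-1.41) and when the 50 most abundant genes were left out of the scaling.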

How the data were processed

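The values are TPM from the deposited mouse table, in which the authors placed 49548 genes. Per the submitters' processing notes, reads were aligned with Bowtie 1.0.0 and quantified with RSEM 1.2.31 on mm10. Per the labels' protocols, tissue was homogenised, DNase-treated total RNA (10 or 100 ng) was amplified with SMART-seq2, and single-end reads were made. TPM keeps no depth, and RSEM shares reads among similar genes. SMART-seq2 does not mark strand, so reads of a gene and an antisense partner cannot be told apart. Per the labels, groups are the tissue of each sample. Values were taken as log2(TPM + 1), genes with 1 TPM or more in at least 3 of the 6 libraries were kept, and epidermis was compared with dermis by limma 3.58.1 (R 4.3.3, moderated with a mean-variance trend, Benjamini-Hochberg adjustment, threshold 0.05). The script was tested on simulated data. Coordinates and coding sequences came from the GENCODE annotation of mm10. The genes described, their lists and the pairs were chosen with earlier results of these data known. Genes named were those with the smallest adjusted p in each list, the largest differences outside the lists, the most abundant, the most alike, those that 1 library set apart, and members needed to show a mixed list. The Y-linked genes, the genes of sparse cell types at or near 0, and Plau, Il1f6, Hk2, Slc2a1, Tjp1, Ccnb1, Mki67, Met, Trdc, Cd207, the keratins and Serpinb13 named as not called, Cdh3 and Dlx3 were named after their values were seen. Alternatives covered the pseudocount, the filter, the scaling, the trend, a replicate block and each library left out. Values of a few listed genes are not reported here.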

Additional observations from a re-analysis of the deposited data

How the results depend on the processing

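Depth is unknown in TPM, and 3 libraries a layer limit the precision. Scaling had the largest effect on the counts: the 2721 genes higher in epidermis became 4342 under median-of-ratios scaling and 4694 under quantile normalization, and the 6275 lower genes became 4850 and 4191. The cause was not tested. Leaving out 1 library at a time gave 2124 to 2791 higher and 5291 to 6376 lower genes. The other pseudocounts, filters, scaling and trend gave 2212 to 2759 higher and 4242 to 6631 lower genes, the smallest with a filter of 5 TPM, which tests fewer genes. Of 32 list medians 30 kept their sign under every alternative. The non-coding RNA median of -0.14 became 0.18 (median-of-ratios) and 0.22 (quantile) and ranged from -0.72 (without dermis replicate 1) to 0.02 (without dermis replicate 3) when 1 library was left out, and the oxidative phosphorylation median of 0.12 became -0.07 (quantile). Met, not called, went from a negative difference to a called 0.77 under quantile normalization. Of 153 genes called and named in the text, 137 kept their call under every alternative. Of genes not called, Itga6, Cd44, Krt17, Krt77, Serpinb13, Cdh3, Mmp10, Hoxa7 and Cd207 were called higher under median-of-ratios scaling, and P3h2, Krt12, Krt77, Serpinb13, Cdh3, Mmp10, Hoxa7 and Cd207 under quantile normalization.

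The labels number the libraries 1 to 3 in both layers without saying that a number marks a shared animal. Same-numbered libraries deviated from their layer's mean with correlations of -0.135, 0.086 and 0.189 over genes, and Uty and Xist split the libraries by the same numbers in both layers, the replicates 1 standing apart. Since neither the labels nor every correlation ties the numbers to shared animals, the comparison was made without a block, and whether they pair the samples was not settled. With the replicate block 2464 genes were higher and 5940 lower, and the calls of Il1b, Fgf1, Igf1r and Bhlhe41 were lost.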

Other observations

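Calcium-handling genes lay on both sides. Of 28 tested genes for calcium binding and transport 13 were higher and 9 lower in epidermis, with a median of 0.48. These were 46.4% and 32.1% of the list, against 17.0% and 39.3% of all genes tested. Of the 28, 1 was tested through dermis alone. Atp2a2, the calcium pump of the endoplasmic reticulum that is mutated in Darier disease, stood at 36.1, 28.8 and 29.0 TPM in dermis and 70.9, 82.3 and 60.0 TPM in epidermis (1.15 ± 0.21, limma adjusted p = 0.003, and 1.10 without dermis replicate 2). Trpv3, a warmth-gated calcium channel of keratinocytes, was at 0.86, 2.15 and 0.20 TPM and 6.48, 12.9 and 5.95 TPM (2.23 ± 0.42, adjusted p = 0.0037, and 2.59 without dermis replicate 2). Among the annexins, calcium-dependent membrane-binding proteins, Anxa9 was higher at 65.2, 63.1 and 46.9 TPM in epidermis against 1.42, 12.6 and 2.14 TPM in dermis (3.65 ± 0.61, adjusted p = 0.0023, and 4.42 without dermis replicate 2). Anxa6 was lower, at 139.9, 127 and 170.3 TPM in dermis and 5.01, 1.13 and 5.58 TPM in epidermis (-5.05 ± 0.43, adjusted p = 1.1e-04). None of these genes overlapped between the layers.

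Genes listed for sebaceous gland cells included lipid enzymes shared with other keratinocytes, and 3 of 5 tested were higher and 2 lower. The summed level of the 10 listed genes was larger in dermis, at 223.9, 165.8 and 228.1 TPM, than in epidermis, at 99.56, 99.42 and 94.26 TPM. The genes named here are from the higher ones. Cidea, a lipid droplet protein, stood at 0, 0.39 and 0.06 TPM in dermis and 11.8, 22.2 and 7.25 TPM in epidermis (3.57 ± 0.38, adjusted p = 3.0e-04, and 3.71 without dermis replicate 2). It was tested through epidermis alone, so its call is no support for a difference. Scd1, a fatty acid desaturase, was at 3.39, 3.72 and 3.43 TPM in dermis and 9.26, 10.2 and 7.79 TPM in epidermis (1.15 ± 0.19, adjusted p = 0.0023, and 1.19 without dermis replicate 2).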
